A study of Drosophila melanogaster with 36 samples.

Results

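The genes described here encode proteins of the inner eggshell of Drosophila and other early products of the follicle cells. They were chosen by name, as Vm26Aa, Vm26Ab, Vm26Ac, Vm32E, Vm34Ca, Vml, Fcp3C, dec and psd, and each was read from the probe set annotated to it alone. Of these 9 genes, 7 had such a probe set, out of 10844 genes on the array that did, and all 7 passed the filter on dim probe sets. Vm26Ab and Vml have no values here. Each of the 7 genes had 1 probe set.

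The fly egg grows inside an egg chamber, in which a layer of somatic follicle cells surrounds the oocyte and its nurse cells. In the middle of oogenesis the follicle cells secrete the vitelline membrane, the innermost layer of the eggshell, and later they switch to the chorion proteins of the outer layers. The vitelline membrane and chorion genes are known as markers of these successive stages, each being transcribed for a short window of oogenesis. Vm26Aa, Vm32E and Vm34Ca encode small secreted vitelline membrane proteins of 1 related family, and Vm26Ac lies beside Vm26Aa. The psd gene (palisade) is needed to assemble the vitelline membrane, dec (defective chorion) encodes eggshell proteins that are cut into smaller products, and Fcp3C encodes a follicle cell protein of the eggshell. In the Release 6 plus ISO1 MT annotation, Vm26Ab, Vm26Ac, Vm26Aa and psd are neighbours on chromosome arm 2L with no annotated gene between them. Vm32E and Vm34Ca lie elsewhere on 2L, and Fcp3C, dec and Vml lie on the X chromosome.

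Whole adult females of a non-selected line and of a line selected for heat resistance were profiled on 1-colour oligonucleotide arrays. Per the labels, flies of each line were collected untreated or following an hour at 36 °C, at 0.25, 1, 2, 4, 8, 16, 32 and 64 h, and each condition has 2 biological replicates, which gives 18 groups of 2 and 36 arrays. The labels give no age, number of flies pooled, number of selected populations or time of day, and the untreated flies were sampled once per line, so that heat, age and time of day cannot be told apart in any change from untreated flies. Values are log2 intensities and are compared within a gene only, since the levels of different probe sets cannot be set against each other. An intensity of 32, or 5 on the log2 scale, is used as the level of dim probe sets.

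A known check of RNA quality, the log2 ratio of 3′ to 5′ control probe sets, separated the replicate numbers (2.28 ± 0.20 in replicate 1 and 1.55 ± 0.14 in replicate 2, SD, n = 18) whereas the means of the 9 times ran only from 1.78 to 2.05. Of 23 male reproductive genes on the array, 18 had their highest value in selected 32 h replicate 2, where 16 reached an intensity of 32. Their summed intensity was 11.59 on the log2 scale there and at most 8.24 in any other array, so the changes of the 7 genes and of mirr at 32 h, and the steps to and from it, are given with and without that array.

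All 7 genes were lower at 8 h than in untreated flies, in every array. At 8 h Fcp3C, Vm32E and dec fell, with log2 changes of -5.64, -4.55 and -4.36, and at 64 h Fcp3C and dec were again called lower than in untreated flies. At 16 h, between these times, Fcp3C alone passed the test, and the other 6 genes stood near their untreated level in the 2 non-selected arrays. Replicates differed widely at several times, so most of the changes did not pass the test.

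**Figure D1:**
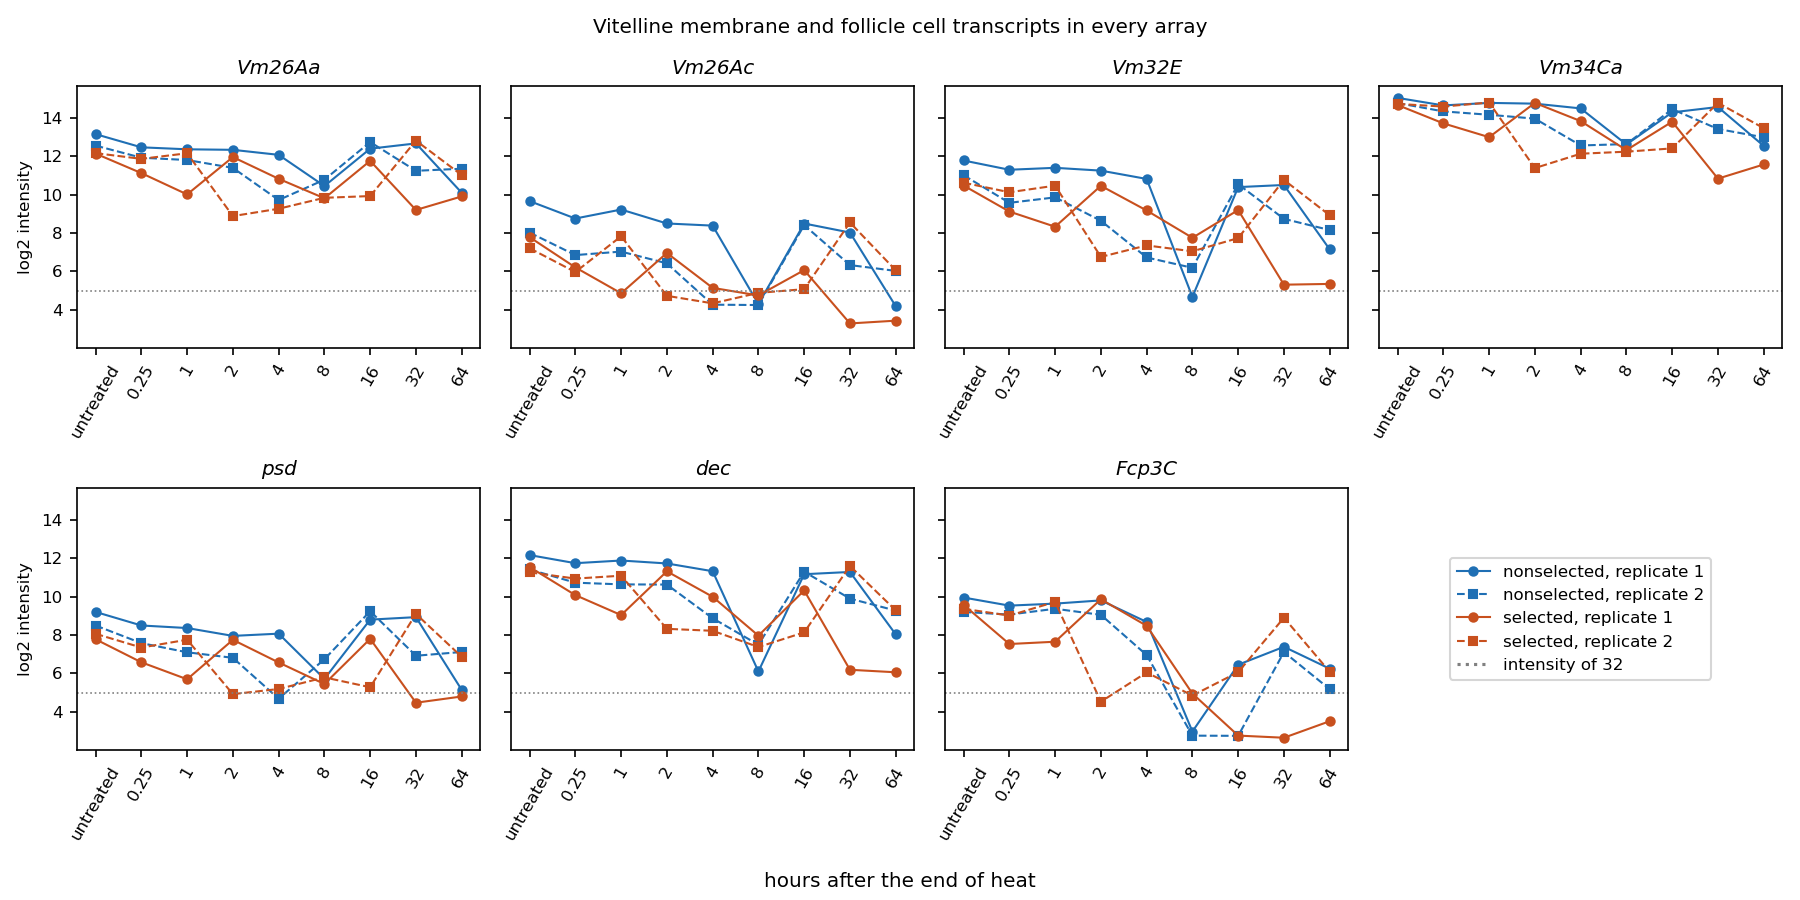
Log2 intensity of each of the 7 genes in all 36 arrays (vertical axis) against hours after the end of heat (horizontal axis, categories). Blue marks the non-selected line, orange the selected line, circles with solid lines replicate 1 and squares with dashed lines replicate 2; the dotted line is an intensity of 32. Every gene sits lower at 8 h and at 64 h than in any untreated array, and the 2 selected arrays at 32 h lie far apart.

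In untreated flies the spread over the 4 arrays differed between the genes. Vm34Ca stood at 15.03 and 14.77 in the non-selected line and at 14.66 and 14.72 in the selected line, a mean of 14.80 ± 0.16 (log2 intensity, SD, n = 4). Fcp3C stood at 9.95, 9.20, 9.57 and 9.36 in the same order of arrays (9.52 ± 0.32), and dec at 12.16, 11.41, 11.54 and 11.26 (11.59 ± 0.40). The widest spread was that of Vm26Ac, with 9.66 in non-selected replicate 1 and 8.02, 7.78 and 7.20 in the other arrays.

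From 0.25 to 2 h after heat no gene of the 7 passed the test. The test throughout is limma's moderated test over 8199 probe sets with Benjamini-Hochberg adjustment and a threshold of 0.05, comparing the 4 arrays of a time with the 4 untreated arrays. At 0.25, 1 and 2 h 0 of 7 genes passed, and 0 had an unadjusted p under the threshold, where 0.244%, 0.378% and 0.39% of all tested probe sets were called lower. Their median log2 changes were -0.74, -0.93 and -1.36, against -0.00, 0.04 and 0.03 over all tested probe sets. At 0.25 h Vm34Ca alone had all 4 arrays below all 4 untreated arrays, against 2.32% of all tested probe sets. At 1 and 2 h 0 of 7 genes did, against 2.83% and 2.16%. The means hide a split between arrays. At 1 h all 7 genes were lower in selected replicate 1 than in selected replicate 2, for example dec at 9.04 against 11.09 and Vm26Ac at 4.86 against 7.83. At 2 h the order was turned, and selected replicate 2 was the low array, with dec at 8.32 against 11.31 and Fcp3C at 4.53 against 9.86.

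At 4 h the non-selected line also held a low array. Vm32E stood at 10.81 in non-selected replicate 1 but at 6.72 in non-selected replicate 2, and at 9.17 and 7.35 in the selected line. The other genes had the same order, with replicate 2 below replicate 1 in both lines for all 7. None of the 7 passed the test, where 0.134% of all probe sets were called lower, although 6 had an unadjusted p under the threshold and the median log2 change was -2.03. For 3 genes, Vm26Aa, Vm34Ca and Fcp3C, all 4 arrays lay below all 4 untreated arrays, which held for 1.4% of all tested probe sets.

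The lowest median change of the 8 times was reached at 8 h. Vm34Ca read 12.61 and 12.63 in the non-selected line and 12.32 and 12.23 in the selected line, 12.45 ± 0.20 (SD, n = 4), which was 5.09-fold below untreated flies (adjusted p = 0.181). Vm26Aa read between 9.81 and 10.77 and psd between 5.45 and 6.74, 4.87-fold and 5.50-fold below untreated flies (adjusted p = 0.198 and 0.325). For each of the 7 genes the arrays of 8 h and the untreated arrays did not overlap, against 3.04% of all tested probe sets with all 4 arrays below.

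Fcp3C had the largest change at 8 h. It read 2.97 and 2.76 in the non-selected line and 4.95 and 4.85 in the selected line, all under an intensity of 32, which makes it at least 23.0-fold lower with those arrays set to 32 (log2 change -5.64, SE 1.17, adjusted p = 0.0155). Vm32E read 4.67 and 6.19 in the non-selected and 7.75 and 7.05 in the selected line, at least 22.2-fold lower (log2 change -4.55, SE 1.11, adjusted p = 0.0456). The dec transcript read 6.10, 7.49, 7.96 and 7.37 in the same order, 20.5-fold lower (log2 change -4.36, SE 0.96, adjusted p = 0.0226). Vm26Ac was under an intensity of 32 in all 4 arrays of 8 h, with 4.25 to 4.88, and at least 8.98-fold lower (adjusted p = 0.116). Thus 3 of 7 genes were called lower, where 0.354% of all tested probe sets were. The median log2 change of the 7 was -3.62 with values as read, that of Vm26Ac, against 0.00 over all tested probe sets. In whole flies, fewer cells that make these transcripts and less transcript per cell cannot be told apart.

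The calls at 8 h rest on few arrays. Fcp3C lost its call when any of the 4 untreated or 4 arrays of 8 h was left out (highest adjusted p = 0.0712), and dec when any of these except non-selected 8 h replicate 2 was (highest adjusted p = 0.132). Vm32E kept its call only without 1 of 10 arrays, those of the non-selected line at 2 and 4 h and of the selected line at 2, 32 and 64 h, and reached an adjusted p of 0.229 without another array. Without either selected 32 h array Vm26Ac was called lower too (adjusted p = 0.0392). The direction stayed the same in all of these.

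**Figure D2:**
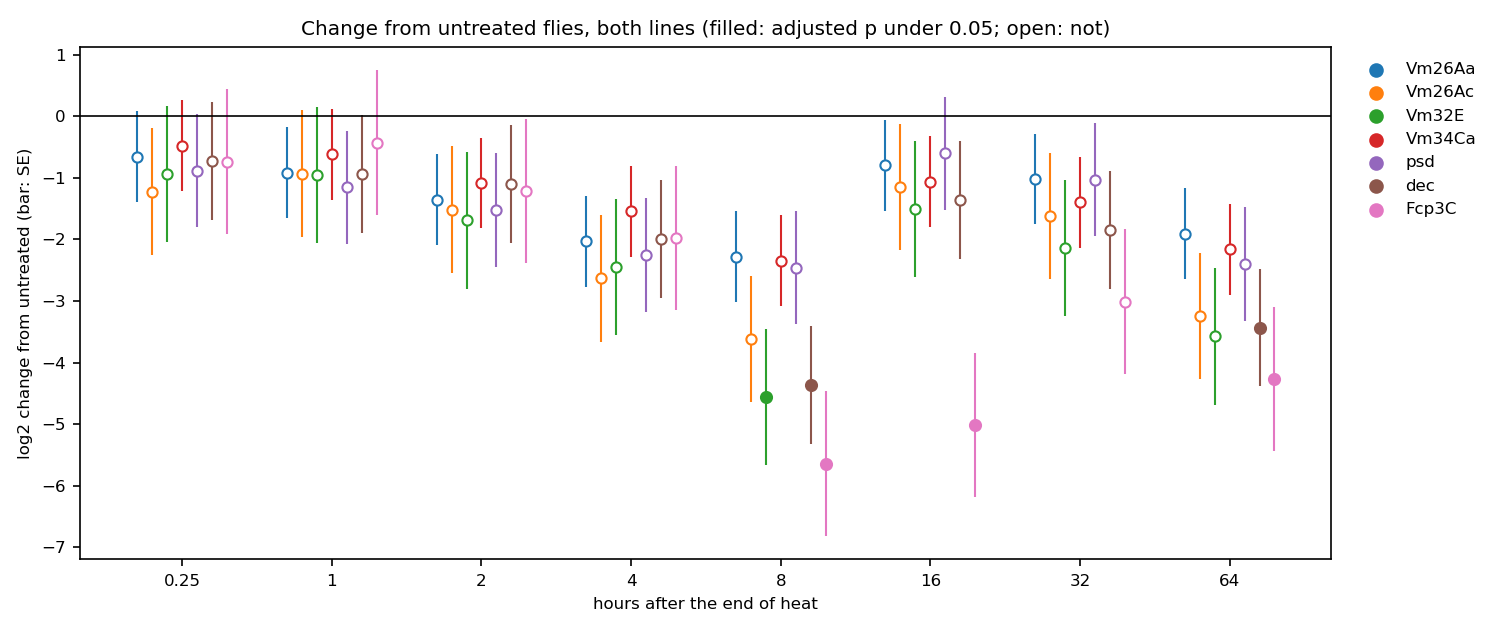
Log2 change from untreated flies (vertical axis, both lines averaged, bars are the SE of the linear model) for the 7 genes at each of 8 times after heat (horizontal axis, hours). Filled points have an adjusted p under 0.05 and open points do not; the 7 genes fan out at 8 h, and at 16 h Fcp3C stands at -5.01 while the other 6 stand between -1.50 and -0.60.

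At 16 h 6 of the 7 genes stood closer to the untreated level in 3 of the 4 arrays. Vm34Ca read 14.28 and 14.45 in the non-selected line and 13.79 in selected replicate 1, but 12.40 in selected replicate 2. The psd transcript read 8.80, 9.24, 7.80 and 5.28 in the same order, and Vm26Aa read 12.39, 12.74, 11.76 and 9.92. Selected replicate 2 was thus the array in which these 6 genes stayed close to their level at 8 h. Their log2 changes from untreated flies ran from -1.50 for Vm32E to -0.60 for psd, with adjusted p from 0.667 to 0.900.

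Fcp3C differed from this course. It read 6.45 and 2.75 in the non-selected line and 2.76 and 6.06 in the selected line at 16 h, 2 of 4 arrays under an intensity of 32, and was at least 14.8-fold lower than in untreated flies (log2 change -5.01, SE 1.17, adjusted p = 0.0203). It was the 1 gene of the 7 called lower at 16 h, when 0.915% of all tested probe sets were. This call was lost without any of the 4 untreated arrays, non-selected 16 h replicate 2 or selected 16 h replicate 1 (highest adjusted p = 0.157). The arrays in which Fcp3C was lowest were not those in which the others were lowest. In selected replicate 2, the lowest array at 16 h for the other 6, Fcp3C was at least 1.06 log2 units higher than in replicate 1, which is set to an intensity of 32 here. The log2 ratio of Fcp3C to each of the other 6 genes was at least 2.39 (Vm32E) to 3.29 (psd) units lower at 16 h than in untreated arrays, with Fcp3C set to an intensity of 32 in the 2 arrays under it, but the exact 2-sided permutation test of these 6 ratios, chosen after their values were seen, gave adjusted p = 0.0857 for each (n = 4 against 4, smallest possible p 0.0286). For Vm34Ca and Vm26Aa all 4 arrays of 16 h lay below all untreated ratios. Vm34Ca and Fcp3C were the 2 genes whose own values at 16 h did not overlap the untreated ones, against 3.77% of all tested probe sets.

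No step between neighbouring times passed the test for any of the 7 genes. From 4 to 8 h the largest step was that of Fcp3C (log2 change -3.66, adjusted p = 0.337), 2 genes had an unadjusted p under the threshold, and 0.293% of all tested probe sets were called in either direction. From 8 to 16 h all 7 estimates were above 0, from 0.63 for Fcp3C to 3.05 for Vm32E, and 3 had an unadjusted p under the threshold. The adjusted p was 0.732 for Vm32E and 0.495 for dec, where 0.256% of all tested probe sets were called. From 16 to 32 h and from 32 to 64 h 0 genes had an unadjusted p under the threshold, and 0.146% and 0.268% of all tested probe sets were called. Without selected 32 h replicate 2 these counts were 1 and 0, and no gene of the 7 passed. The steps from 32 to 64 h then ran from -0.31 (Vm26Ac) to 0.31 (Fcp3C).

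At 32 h the arrays of the selected line lay furthest apart. Replicate 1 read 6.19 for dec, 5.31 for Vm32E and 2.65 for Fcp3C, and replicate 2 read 11.59, 10.76 and 8.90. Replicate 1 was thus at or below the level of 8 h, and replicate 2, the array with male transcripts, was at the untreated level for most of the genes. The difference between these 2 arrays was 3.61 log2 units for Vm26Aa, 3.95 for Vm34Ca, 5.40 for dec and 5.45 for Vm32E. For Fcp3C, Vm26Ac and psd, which read under an intensity of 32 in replicate 1, it was at least 3.90, 3.55 and 4.10. The non-selected arrays read 11.28 and 9.89 for dec and 14.56 and 13.42 for Vm34Ca.

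None of the 7 genes was called at 32 h, where 0.415% of all tested probe sets were called lower, and 1 had an unadjusted p under the threshold. Fcp3C was at -3.01 (SE 1.17, adjusted p = 0.274), and without selected 32 h replicate 2 it was called lower at -4.57 (adjusted p = 0.0482). Without that array the other 6 genes stood between -3.51 (Vm32E) and -1.92 (Vm26Aa) with adjusted p from 0.0980 (dec) to 0.442 (psd), and all 7 had an unadjusted p under the threshold. It was also the 1 gene with all 4 arrays below the untreated ones, against 1.48% of all tested probe sets.

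At 64 h all 7 genes were lower again in every array. Fcp3C read 6.24 and 5.18 in the non-selected line and 3.51 and 6.08 in the selected line, at least 14.9-fold below untreated flies (log2 change -4.27, SE 1.17, adjusted p = 0.0451). The dec transcript read 8.03, 9.27, 6.06 and 9.28 in the same order, 10.8-fold lower (log2 change -3.43, SE 0.96, adjusted p = 0.0486). Selected replicate 1 was the lowest array for dec, Vm32E, Vm34Ca, Vm26Ac, Vm26Aa, psd and Fcp3C alike. These 2 of 7 genes were called lower, where 1.34% of all tested probe sets were.

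The other 5 genes were short of the threshold at 64 h. Vm32E was 11.9-fold lower and Vm26Ac at least 6.26-fold lower (adjusted p = 0.0824 and 0.0937), and Vm34Ca, psd and Vm26Aa had log2 changes of -2.16, -2.40 and -1.91 (adjusted p from 0.131 to 0.205). No gene of the 7 overlapped with the untreated arrays, against 4.94% of all tested probe sets with all 4 arrays below. The median log2 change was -3.24 with values as read, that of Vm26Ac, which had 2 of 4 arrays under an intensity of 32.

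The calls at 64 h lay close to the threshold. Fcp3C kept its call without 1 of 11 arrays (those of the non-selected line at 16 h and of the selected line at 2, 4, 16 and 32 h, and selected 64 h replicate 2) and lost it without any of the other 25 (highest adjusted p = 0.235). The dec call was kept without 1 of 9 arrays (those of the non-selected line at 4 h and of the selected line at 2, 16 and 32 h, and selected 64 h replicate 2) and lost without any of the other 27 (highest adjusted p = 0.294). Without either selected 32 h array Vm26Ac and Vm32E were called lower as well (adjusted p = 0.0377 and 0.0369). Vm32E was also called without selected 64 h replicate 2 (log2 change -4.47, adjusted p = 0.0424).

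Over the whole series, a moderated F-test of the 8 times called Fcp3C (F = 6.37, adjusted p = 0.00470) and dec (F = 4.11, adjusted p = 0.0352), 2 of 7 genes, where 13.2% of all tested probe sets were called. The adjusted p was 0.0893 for Vm32E and at least 0.172 for the other 4 genes. With 1 array left out the count was 1 for 15 arrays, 2 for 18 arrays, 3 for 2 arrays, selected 32 h replicate 2 being among them, and 4 without selected 32 h replicate 1.

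The spread between replicate arrays of these genes was itself wide. The residual SD of the model, which measures the difference between arrays of the same line and time, was 1.13 log2 units for Vm26Aa and Vm34Ca and 1.47 for dec, the 3 genes with no array under an intensity of 32, against a median of 0.24 over all tested probe sets. For each of the 3 at least 99.2% of all tested probe sets had a smaller residual SD. The range over the 36 arrays was 6.10 log2 units for dec, 4.27 for Vm26Aa and 4.21 for Vm34Ca. It was at least 6.77 for Vm32E, 4.95 for Fcp3C, 4.66 for Vm26Ac and 4.24 for psd, which had 1, 9, 11 and 4 arrays under 32, against a median of 1.04 over all tested probe sets.

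Replicates differed in step across the genes. In 11 of the 18 groups all 7 genes lay on the same side, 8 times lower and 3 times higher in replicate 2 than in replicate 1. In the non-selected line replicate 2 was lower for all 7 genes in untreated flies and at 0.25, 1, 2, 4 and 32 h, and in the selected line at 2 and 4 h. It was higher for all 7 in the selected line at 1, 32 and 64 h. Added to the model as a term, the replicate number gave differences of -0.32 to -0.08 log2 units for the 7 genes (replicate 2 minus replicate 1, adjusted p from 0.600 to 0.903), while the RNA quality ratio was lower in every replicate 2 than in any replicate 1. Its part in these differences was not tested. In the selected line at 8 h the replicates differed little, from -0.70 to 0.34.

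**Figure D3:**
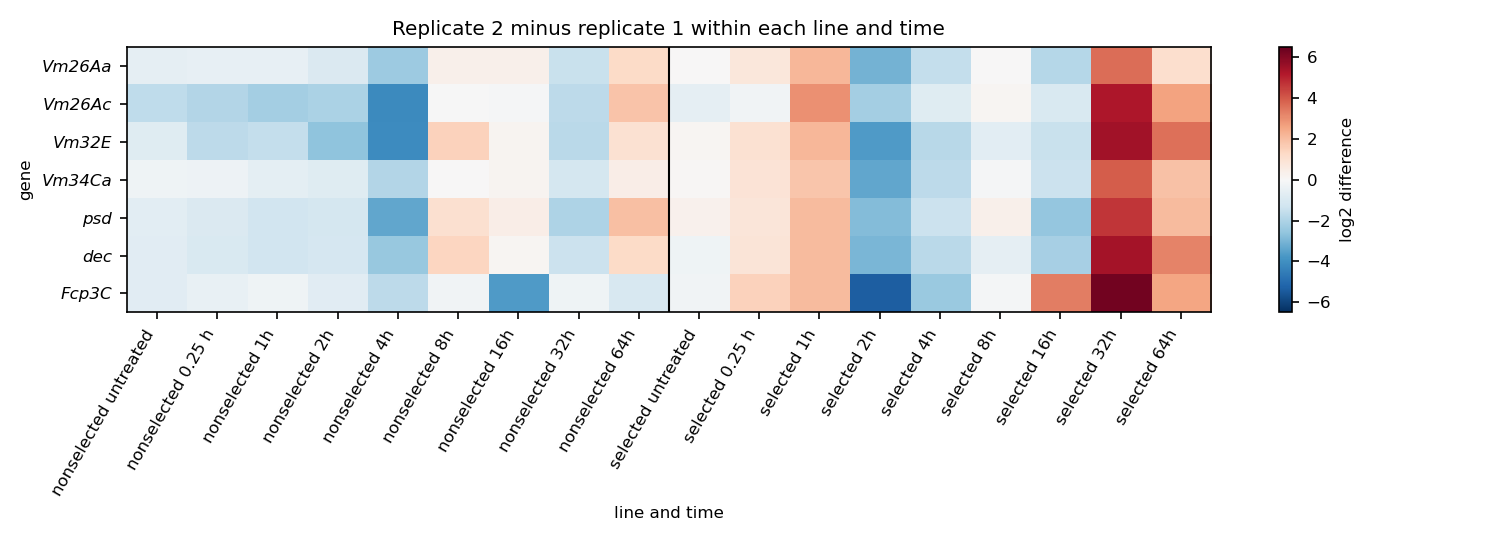
Log2 difference between the replicate arrays (replicate 2 minus replicate 1, colour scale) for each of the 7 genes (rows) in each line and time (columns, the non-selected line left of the black line). In 11 of the 18 columns all 7 genes have the same sign; at 16 h Fcp3C has the opposite sign to most of the other genes in both lines, and at 8 h in the selected line the differences are small. Values under an intensity of 32 are drawn as read.

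The profiles of the 7 genes over the 36 arrays were compared after centring each on its own mean, with arrays under an intensity of 32 set to 32. Among the 6 genes other than Fcp3C, the mean absolute difference of a pair ran from 0.28 log2 units (Vm26Aa and psd) to 0.73 (Vm26Aa and Vm32E). Vm32E and dec lay 0.31 apart, and Vm26Aa and Vm34Ca 0.32. For scale, the mean absolute deviation from the own mean was 1.00 for Vm34Ca, 1.02 for Vm26Aa and 1.52 for dec. Vm26Ac lay nearest to psd (0.48) and Vm26Aa (0.53), of the same run of genes on the chromosome, but without the floor it lay nearest to Vm32E (0.50). Fcp3C lay between 0.85 (dec) and 1.27 (psd) from the others. The 36 arrays share the 18 groups, so these figures describe the arrays and carry no test.

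Among 6877 other tested genes, the profiles nearest to the mean of the 7 were those of CG14309 (0.55 log2 units), St4 (0.65), CG14187 (0.69), CG9747 (0.71) and Jhbp5 (0.79), over the 36 arrays and by the same measure without the floor. CG13113, epsilonTry, CG16956, Jon25Bi and Jon66Ci followed, at 0.86 to 0.91. The mean profile itself deviated from 0 by 1.34 on average. St4 was the nearest gene to Vm26Aa, Vm34Ca and psd, and CG14309 to dec, Vm32E and Vm26Ac, while Jhbp5 was the nearest to Fcp3C. The second nearest to psd was ndl (nudel), a follicle cell protease that acts in eggshell and embryonic patterning. Of the 10 nearest genes, which were found with these same arrays, 5 were called lower at 8 h, 5 at 16 h, 1 at 32 h and 9 at 64 h, where 0.354%, 0.915%, 0.415% and 1.34% of all tested probe sets were. St4 averaged 6.27 in untreated flies and under 5, the dim level, at every time after heat (3.82 at 8 h). CG14187, CG13113 and CG16956 averaged under 5 at 8, 16 and 64 h. The likeness and calls of these genes rest partly on dim readings. Like Fcp3C, Jhbp5 was low at both 8 and 16 h, with log2 changes of -4.10 and -4.03 (SE 0.74 each, adjusted p = 0.00534 and 0.00315).

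Trypsin and Jonah genes among these neighbours encode digestive proteases of the gut. Of 15 measured gut genes 1 was called lower at 8 h, 2 higher at 16 h, and 2 lower and 2 higher at 64 h, with median log2 changes of -0.41, -0.49 and -0.25. Their summed intensity on the log2 scale ran from 15.32 to 15.77 in untreated flies, from 14.97 to 15.21 at 8 h and from 14.97 to 15.36 at 64 h. Their part in the result was not tested.

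The chorion genes, which follicle cells transcribe after the vitelline membrane genes, had a partly different time course. The 10 measured genes of a chorion and late eggshell list had a median log2 change of -2.19 at 8 h, when 0 were called lower and 3 had an unadjusted p under the threshold. Like the 7 genes, Cp7Fc, Cp36, Cp38, yellow-g and yellow-g2 had all 4 arrays of 8 h below all 4 untreated arrays, against 3.04% of all tested probe sets. Cp7Fc, yellow-g and yellow-g2 stood at -5.13, -4.15 and -3.82 at 8 h. The other chorion genes overlapped with the untreated arrays. At 16 h all 10 were called lower, with a median of -6.55, and at 64 h 7 were, with a median of -4.88. From 8 to 16 h 5 of the 10 were called lower, Cp19 among them (log2 change -5.96, adjusted p = 0.00780). The median of the 7 vitelline membrane and follicle cell genes was -1.16 at 16 h. These medians, and those of single arrays below, use values as read. At 16 h Femcoat was under an intensity of 32 in 4 of 4 arrays. Cp7Fc, Cp16 and Cp18 were under it in 3, and Cp15 in 0. The sizes of the chorion medians thus rest partly on dim readings.

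In single arrays the gap was wide. The median change of the 7 genes from the untreated mean was -3.87 and -3.92 in the non-selected arrays of 8 h, where the median of the chorion genes was -0.79 and -0.83. At 16 h the same line stood at -0.43 and -0.30 for the 7 genes and at -5.40 and -8.49 for the chorion genes. In selected replicate 1 at 8 h and selected replicate 2 at 16 h both groups were low, at -3.22 and -5.32 and at -3.10 and -7.79. At 64 h both groups were low in all 4 arrays.

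The change in order from 8 to 16 h was tested as a ratio within each array, first with the mean of all 10 measured chorion genes as the reference and arrays under an intensity of 32 set to 32. The log2 ratio of Vm34Ca rose from 2.73 ± 1.61 at 8 h to 7.35 ± 1.60 at 16 h (SD, n = 4), without overlap (exact 2-sided permutation p = 0.0286, the smallest that 4 against 4 can give, adjusted p = 0.0400 over 7 ratios). The ratios of Vm26Aa, psd, Vm32E and dec rose by 4.82, 5.19, 6.31 and 6.33 log2 units with the same p. Those of Vm26Ac and Fcp3C, which were under 32 in all 4 arrays of 8 h, did not pass (exact permutation p = 0.0571, adjusted p = 0.0571). With Cp19 alone as the reference the rise was larger, for example at least 7.16 units for Vm34Ca (exact permutation p = 0.0286). Cp19 has the most negative change at 16 h of the 10 chorion genes (-7.40), while Cp7Fc was already at -5.13 at 8 h (adjusted p = 0.0672). These tests were chosen after the values were seen, and the level of a ratio between probe sets has no meaning beside its change. The 7 ratios share their reference, and the chorion genes themselves fell from 8 to 16 h, so the ratios are not separate results. The steps of the 7 genes alone from 8 to 16 h ran from 0.63 (Fcp3C) to 3.05 (Vm32E), and none passed the moderated test.

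**Figure D4:**
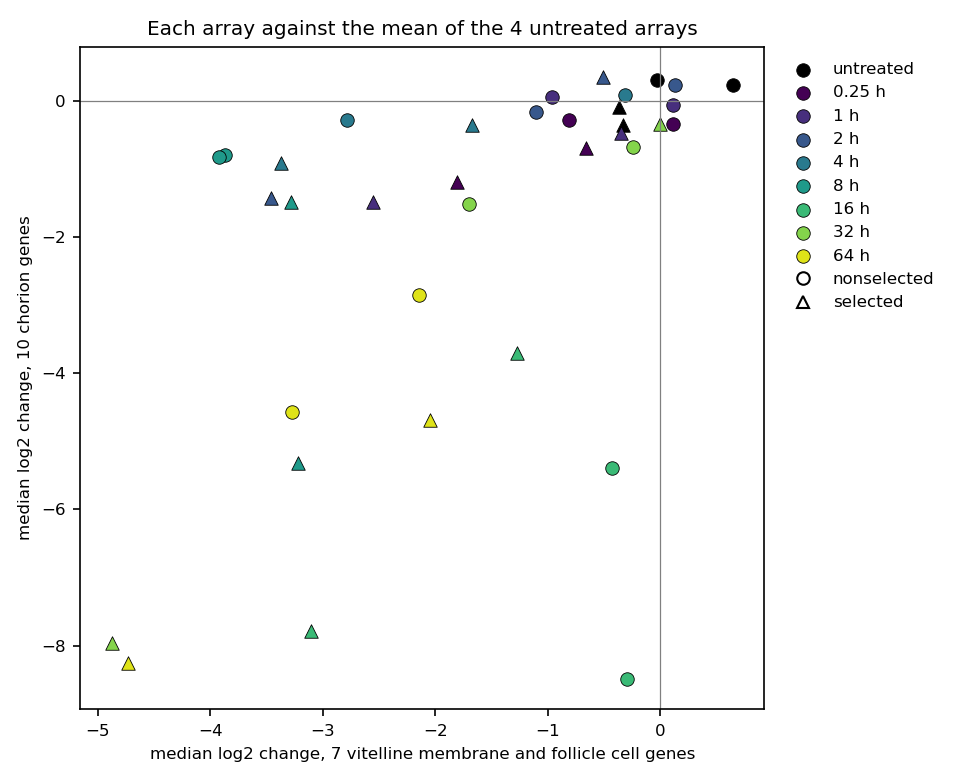
Each point is 1 array, placed by the median log2 change from the mean of the 4 untreated arrays of the 7 vitelline membrane and follicle cell genes (horizontal axis) and of the 10 chorion genes (vertical axis); colours give the time and shapes the line. Most arrays of 4 and 8 h lie to the left with chorion changes above -1.5, the non-selected arrays of 16 h lie at the lower right, and arrays of 64 h lie at the lower left.

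Germline gene transcripts moved little, and yolk gene transcripts moved little at 8 and 16 h. Yp1 to Yp3 are made by fat body as well as follicle cells, so their values in whole flies do not describe the ovary alone. The 25 measured germline genes, transcripts of nurse cells and oocytes, had median log2 changes of -0.15 at 8 h, -0.06 at 16 h and -0.05 at 64 h, with 0, 0 and 1 called, tud at 64 h being higher, and 1, 1 and 4 with an unadjusted p under the threshold. The receptor gene yl and the 3 genes of the yolk proteins it takes up, Yp1 to Yp3, stood between -0.34 and -0.03 at 8 h and none was called, with 0 unadjusted p under the threshold. At 64 h Yp3 was called lower (-0.65, adjusted p = 0.0297). Yp2 stood at -0.69 (adjusted p = 0.132), with all 4 arrays below the untreated ones, against 4.94% of all tested probe sets. The median change of the yolk genes from the untreated mean was -0.98 in selected 64 h replicate 1. Of 6 measured genes needed to assemble the eggshell none was called at any time. Among them, ndl had log2 changes of -0.69 at 8 h and 0.95 at 16 h (adjusted p = 0.891 and 0.671).

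Among 8 measured regulators of follicle cells, mirr, a transcription factor gene, was called higher at 32 h (log2 change 0.58, adjusted p = 0.0197, and 0.0371 without selected 32 h replicate 2), and no other was called at any time. The ecdysone receptor genes EcR and usp stood at -0.09 and -0.14 at 8 h (adjusted p = 0.980 and 0.896). The broad gene br stood at 0.17 at 8 h and at 0.46 at 64 h (adjusted p = 0.953 and 0.413). This list covers 8 of the 22 genes named for it, since the others had no probe set of 1 gene or were dim.

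The selected line had lower mean values than the non-selected line for all 7 genes. Averaged over the 9 times, the difference (selected minus non-selected) ran from -1.33 log2 units for Vm26Ac (SE 0.48, adjusted p = 0.0727) to -0.59 for Fcp3C (SE 0.55, adjusted p = 0.482), and Vm26Aa stood at -0.94 (SE 0.35, adjusted p = 0.0787). The selected mean was lower at 9 of 9 times for Vm26Aa, Vm34Ca and psd and at 8 of 9 for the other genes, the exception being 8 h. For Vm26Ac and Fcp3C all 4 arrays of 8 h were under an intensity of 32, so that exception compares dim readings. None of the 7 passed, where 12.2% of all tested probe sets were called in either direction, and 4 had an unadjusted p under the threshold.

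This comparison depended on the array with male transcripts. The 4 genes with an unadjusted p under the threshold were Vm26Aa, Vm26Ac, dec and psd. Without selected 32 h replicate 2 their log2 differences all lay further below 0, at -1.14, -1.63, -1.24 and -1.27, against -0.94, -1.33, -0.94 and -1.01 with it. Vm26Aa stood at -1.11 without selected 2 h replicate 1, and Vm26Ac at -1.56 without non-selected 4 h replicate 2. Each of these fits leaves a single array in a group, so only the differences are given here. With all arrays, Vm26Ac was called with values under 32 set to 32 (-1.24, adjusted p = 0.0467) and with median centring (-1.38, adjusted p = 0.0493). It was also called with the replicate number added to the model as a term (-1.33, adjusted p = 0.0475), which raised the calls over all tested probe sets too. Yolk genes were lower in the selected line for all 4 measured (median -0.37), and 8 of 11 measured muscle genes were higher (median 0.81). Their part in the line difference was not tested.

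The lines did not differ detectably in their course after heat. The moderated F-test of the line by time interaction called 0 of the 7 genes and 0% of all tested probe sets, and 0 of the 7 had an unadjusted p under the threshold. The largest single estimate was that of Vm32E at 8 h, where the change from untreated flies was -5.96 in the non-selected and -3.15 in the selected line, a difference of 2.81. Within the non-selected line the F-test over the 8 times called 0 of 7 genes (3 with an unadjusted p under the threshold), where 3.7% of all tested probe sets were called, and Fcp3C had adjusted p = 0.0691. Without any 1 of the selected arrays of 2 and 32 h, 1 gene was called there. Within the selected line it called 0 of 7 (1 unadjusted), where 3.98% were called, and 2 replicates per time left wide errors in both.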

How the data were processed

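The authors deposited 1 GCRMA intensity per probe set and array. The method comes from the submitters' processing notes, without a version. GCRMA corrects the background by probe sequence, and normalizes between arrays. Values of 1.15 to 46856 show a linear scale, so their log2 was used, with no pseudocount. The 44 array controls among 14010 probe sets were not analysed. GEO's platform annotation gave 12443 probe sets 1 symbol, 327 several and 1196 none. Symbols were updated through the RefSeq gene table of Release 6 plus ISO1 MT. The test covered the 8199 probe sets whose 4 brightest arrays averaged 5 or more in log2. A linear model with 1 coefficient per line and time, leaving 18 residual degrees of freedom, was fitted by limma (version 3.58.1, R version 4.3.3). It had no term for the replicate number and was tested on simulated data. All adjusted p-values not called exact come from it.

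Where arrays read under 32, they were set to 32 for the fold, which is then written as at least. Log2 changes and their medians use values as read unless a floor is named. No 2 arrays held identical values. The labels call the replicates biological and say nothing more, so p-values measure only the spread between these arrays, whose number sets the precision. Array intensities carry no read depth. Cross-hybridisation between related vitelline membrane genes was not assessed.

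The genes and lists were chosen with earlier results of these data known. All 7 measured genes are named. From the comparison lists, genes past the threshold (at most 3 in each direction per contrast) and genes set beside a member may be named, and the nearest profiles are the 10 closest to the mean and the 2 closest to each gene. Lists of male reproductive, fat body, spermatheca and oviduct, muscle, gut and eye markers were also read. At 8 h 0 of 8 fat body, 1 of 2 spermatheca and oviduct (higher), 0 of 11 muscle and 0 of 5 eye genes were called.

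The alternatives were a replicate block, other filters, a floor at 32, quantile normalization, median centring, the trend and robust options of eBayes, array weights and leaving out each array. The ratios to the mean of the chorion genes, and the ranges, ratios and profiles with values under 32 set to 32, were added after seeing the data. Sequences were not used here.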

Additional observations from a re-analysis of the deposited data

Results flagged for a closer look

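In each gene and time, the 4 arrays were checked for a value far from the others, 63 sets in all, of which chance would flag about 1 in 20. One was flagged. Fcp3C in selected 2 h replicate 2 stood at 4.53 log2 units, against 9.05 to 9.86 in the other 3 arrays of 2 h, a gap of 0.848 of the whole range. The other 6 genes were lowest in the same array at 2 h.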

How the results depend on the processing

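The count of genes called at 8 h, 3 of 7, was 6 with array weights and 0 to 4 with 1 array left out. At 16 h it was 1, and 0 to 1 with 1 array left out, and at 32 h it was 0, and 0 to 1. At 64 h it was 2, and 0 without a filter and with the trend and robust options, 1 with the stricter filter and with the floor, 4 with array weights, and 0 to 4 with 1 array left out. Over the 8 times it was 2, and 1 without a filter and 1 to 4 with 1 array left out. In the non-selected line it was 0, and 1 with median centring, 1 with array weights and 0 to 1 with 1 array left out. The line difference called 0, and 1 (Vm26Ac) with the replicate block, the floor and median centring, and 0 to 4 with 1 array left out. The causes were not tested. The call of Vm32E at 8 h was lost without a filter, with the floor, with quantile normalization and with the trend and robust options (adjusted p at most 0.0757), those of dec and Fcp3C at 8 h and Fcp3C at 16 h in none of the 8 settings, and no called value changed sign.

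Over all probe sets, deviations from the group mean had a correlation over 0.1 in 121 of 153 pairs of groups. The median was 0.331, and the range ran from -0.434 to 0.782. For 17 of 18 groups the mean correlation with the other groups was over 0. Arrays of the same replicate number thus shared part of their deviations in most pairs of groups, though not in all. The main model has no term for the replicate number and does not account for this shared part. With the replicate block the counts at 8, 16 and 64 h were again 3, 1 and 2 of 7. Over all probe sets it raised the calls from 62 to 121 at 0.25 h, 104 to 224 at 1 h, 96 to 180 at 2 h, 29 to 63 at 4 h, 87 to 185 at 8 h, 196 to 399 at 16 h, 90 to 257 at 32 h and 293 to 615 at 64 h. It raised them from 1086 to 2064 over the series, 303 to 674 and 326 to 804 within the non-selected and selected line, 1000 to 2349 for the line difference, 24 to 72 from 4 to 8 h and 21 to 35 from 8 to 16 h. Array weights gave 223 at 8 h, 20 at 32 h, 520 within the selected line, and 65, 1 and 6 (main 24, 12 and 22) for the steps to 8, 32 and 64 h. The stricter filter gave 51 at 32 h, 647 for the line difference and 11 for the step to 8 h. Each gene has 1 probe set, so no other probe set could be tried.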
